A study of Mus musculus with 8 samples.

Results

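Matrix metalloproteinases (MMPs), ADAMTS proteinases and the tissue inhibitors of metalloproteinases (TIMPs) were described in notochord-derived cells of Shh-cre;ROSA:YFP mice, in which YFP marks cells that express or once expressed Shh. The members were every gene whose symbol is Mmp, Adamts or Timp followed by its number, and there were 46 among the 43346 gene identifiers counted, with 23 MMP, 19 ADAMTS and 4 TIMP genes. RNA was sequenced from 4 litters at embryonic day 12.5 (E12.5) and 4 litters at postnatal day 0 (P0), each sample being the pooled animals of 1 litter, so that the replicates were separate litters. All samples of both stages carried the same Cre and reporter alleles. Whole notochords were dissected at E12.5 and put directly into TRIzol, whereas nucleus pulposus (NP) cells at P0 were dissociated mechanically, passed through a mesh and sorted for YFP. Stage and isolation method therefore cannot be told apart in any difference given here. In bulk RNA of this kind, fewer cells of a type and less RNA per cell cannot be told apart either.

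MMPs are zinc proteinases that are made as inactive precursors and cut collagens, gelatin and other matrix proteins after activation. ADAMTS proteinases carry thrombospondin repeats; some cleave large proteoglycans such as aggrecan and versican, some trim the amino end of procollagens, and others have narrower or less well known substrates. TIMPs bind to the active site of the metalloproteinases and block them, and the balance of proteinases and TIMPs is widely studied in the disc, where aggrecan and collagen II hold the water that resists load. During development the same families take part in matrix turnover, in the entry of vessels and in the replacement of cartilage by bone.

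Reads assigned to genes ranged from 4442775 to 7180221 in the E12.5 litters and from 6371842 to 8904050 in the P0 litters. A count of 3, taken as the smallest signal that could be seen, equalled 0.337 to 0.675 CPM, the count of a gene scaled to a fixed library size, a limit that covers counting error only. The 46 members together held 0.111% to 0.145% of the reads on genes at E12.5 and 0.123% to 0.278% at P0. Of the notochord markers, T (brachyury) was at 242 to 942 CPM at E12.5 and 574 to 2323 CPM at P0, while Noto was at or near 0 in all litters and Shh was lower at P0. RNA of other cell types was also present, with primitive erythroid, sclerotome and muscle markers summing higher in every E12.5 litter and neutrophil, osteoclast and osteoblast markers summing higher in every P0 litter. Macrophage markers stood apart in NPD30, where they summed to 61.7 CPM against 1693 to 5227 CPM in the other P0 litters. Neutrophil markers stood apart in NPD28, at 8118 CPM against 869 to 1108 CPM. Counts were scaled by edgeR's TMM method, and the log2 fold change of P0 over E12.5 was tested with its quasi-likelihood F-test over 15467 genes. A gene was called at a Benjamini-Hochberg adjusted p under 0.05. Litters are listed in the order NDP10.2, NPD3, NPD4 and NPD9.2 for E12.5 and NPD26, NPD27, NPD28 and NPD30 for P0, and errors on CPM are SD over the 4 litters of a stage.

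Of the 46 genes, 34 passed the filter on low counts and could be tested, and 12 could not. At P0, 6 of the tested genes were higher, 15 were lower and 13 were not called. Over all genes tested, 27.9% were called, 16.0% as higher and 12.0% as lower. Among the 34 tested members the shares were 61.8%, 17.6% and 44.1%. The share called as higher was thus near that of all genes and the share called as lower was above it. The median log2 fold change of the tested members was -0.54, against 0.036 over all genes tested. The split differed by family. Among 14 tested MMP genes 4 were higher and 7 lower, among 17 tested ADAMTS genes 1 was higher and 8 lower, and among 3 tested TIMP genes 1 was higher and 0 lower. The P0 litters all lay above the E12.5 litters for 6 of the 34 tested members and all below them for 15, whereas 15.5% and 14.4% of all genes tested did so. The 6 were the genes called as higher. The 15 differed from the genes called as lower by Adamts19, which did not overlap but was not called, and Mmp14, which was called but overlapped. Adamts13 and Mmp3, which were not tested, also had more reads in every P0 litter than in any E12.5 litter. In NPD30 they had only 2 and 1 reads, under the 3-count limit, and the share of all untested genes that did so was not counted.

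**Figure D1:**
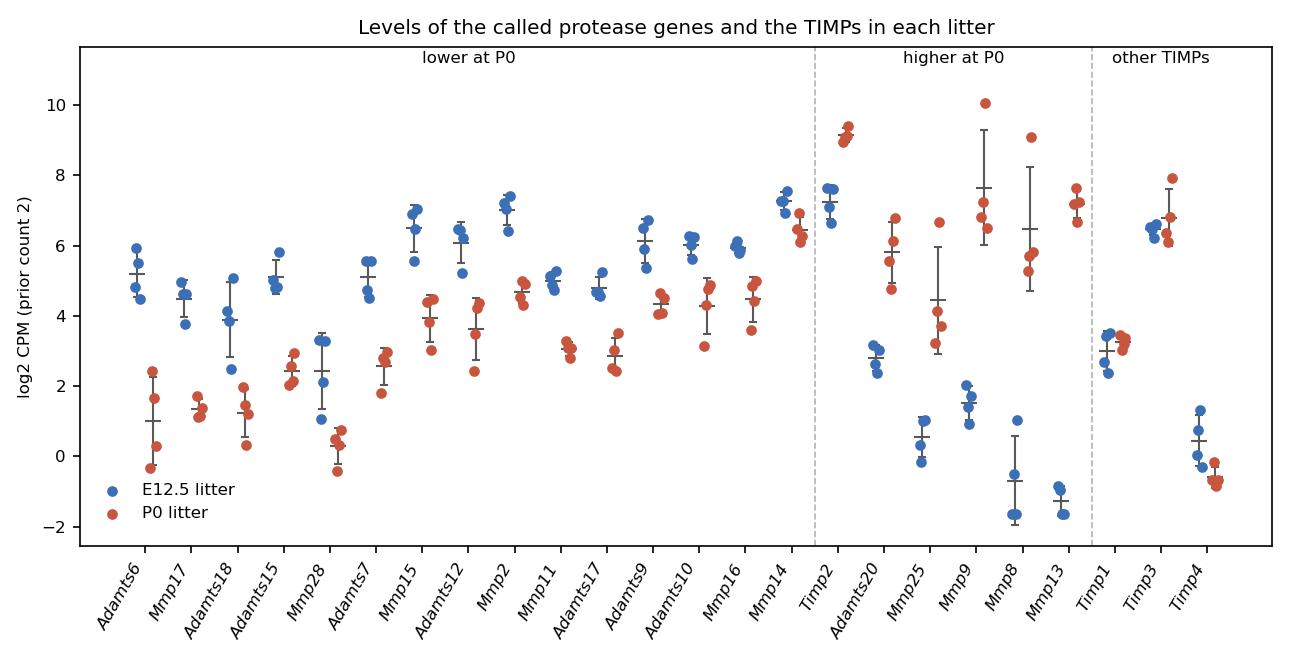
Level of each called member and of the TIMPs in log2 CPM (vertical axis, prior count 2), with 1 point per litter, E12.5 in blue and P0 in red, and the mean and SD over 4 litters as a bar. The 15 genes lower at P0 stand on the left and the 6 higher at P0 next to them; Mmp8, Mmp9 and Mmp25 each have 1 P0 litter, NPD28, far above the other P0 litters.

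**Figure D2:**
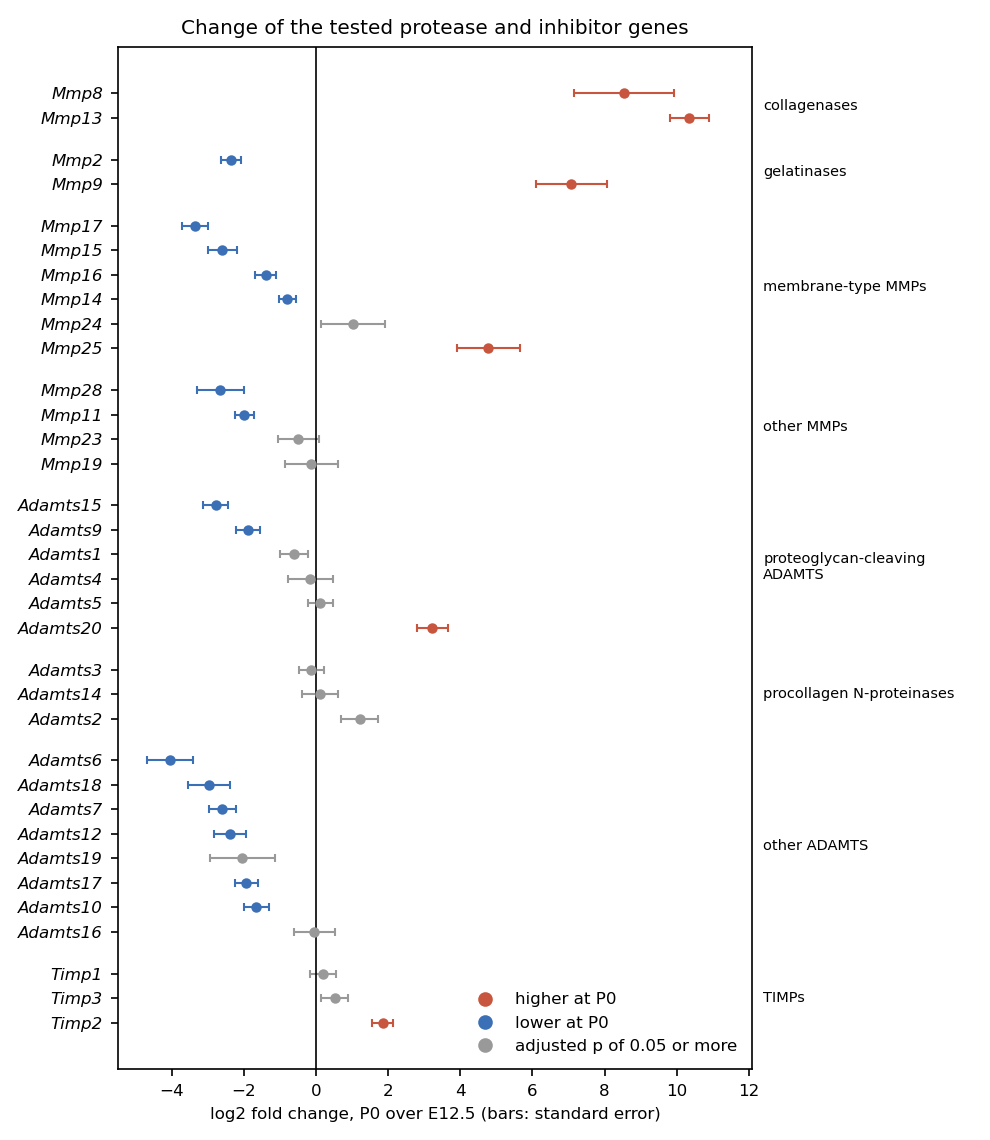
Log2 fold change of P0 over E12.5 (horizontal axis) with its standard error for the 34 tested members, grouped by role. Red points are higher and blue points lower at an adjusted p under 0.05, and gray points are the 13 genes not called; the collagenases lie farthest to the right and Adamts6 farthest to the left.

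The secreted collagenases cut the triple helix of fibrillar collagens. Mmp13 (collagenase 3), which is known from hypertrophic cartilage and bone, had the largest change of all members. It was at 0.236, 0.195, 0 and 0 CPM in the E12.5 litters and at 144, 197, 102 and 151 CPM in the P0 litters. Every P0 litter was far above every E12.5 litter, and the P0 litters lay within a range of 1.92-fold. The whole E12.5 stage held 2 Mmp13 reads and the whole P0 stage 4145, a ratio of 1530 with a 95% counting interval of 423 to 12638. The log2 fold change was 10.35 (SE 0.54, adjusted p = 1.13e-05). Mmp8 (collagenase 2), the collagenase of neutrophil granules, was at 0, 0.390, 0 and 1.72 CPM at E12.5 and at 38.1, 51.6, 543 and 55.8 CPM at P0. Its P0 litters were all above E12.5, but NPD28 stood far above the others. The log2 fold change of 8.53 (SE 1.38, adjusted p = 0.00189) was 6.70 without NPD28 (adjusted p = 0.000911), 7.94 without NPD4 and 10.27 without NPD9.2. The other collagenases of the mouse, Mmp1a and Mmp1b, are related copies, so that some reads may be shared or lost in counting. They had 0 reads at E12.5, and 8 and 2 reads at P0.

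Mmp13 and Mmp8 lie in a run of 10 MMP genes on chromosome 9 (GRCm38, chr9:7272514-7699585, 427.1 kb), in the order Mmp13, Mmp12, Mmp1b, Mmp3, Mmp1a, Mmp10, Mmp8, Mmp27, Mmp20 and Mmp7. These were the only 2 of the 10 with enough reads to test. Of the other 8, 6 had no read at E12.5, 7 had more reads at P0 than at E12.5, and Mmp7 had none in any litter. Such a lean was not particular to the cluster. Over all genes the median log2 fold change was 0.448 without the filter on low counts, against 0.036 with it. Without Mmp8 and Mmp13, the cluster held 0, 1, 0 and 5 reads in the E12.5 litters and 25, 41, 15 and 4 reads in the P0 litters. Most of the reads at P0 were those of Mmp12, with 31 in NPD27 (4.47 CPM), and of Mmp3, with 9 in NPD26, so that these genes were above the 3-count limit in those litters. The other 13 MMP genes lie elsewhere in the genome.

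The promoters of this cluster are shown because 8 of the 10 carry a sequence found in no other member that could be searched. RefSeq promoters (GRCm38.p6, from 250 bases before to 50 bases after a start) were found for 32 of the 46 members. The remaining members, all of them outside the cluster, were not searched. Among these were the called genes Mmp2, Mmp9, Mmp16, Mmp17, Adamts6, Adamts7, Adamts10 and Adamts15. The AP-1 motif TGANTCA, the letters bound by Fos and Jun proteins, was searched on both strands. It was present for 8 of the 10 cluster genes and for 0 of the 22 other members with a promoter, against 8.97% of all 27025 genes in the table. The 47-base stretches around it are given 5′ to 3′ on the strand of the gene, in the order of their positions, with the motif in capitals.
Mmp13 (chr9:7272459-7272505, plus strand): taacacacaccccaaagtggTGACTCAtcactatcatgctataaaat
Mmp12 (chr9:7347310-7347356, plus strand): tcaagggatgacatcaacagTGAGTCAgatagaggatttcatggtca
Mmp1b (chr9:7388093-7388139, minus strand): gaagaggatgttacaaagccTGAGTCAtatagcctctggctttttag
Mmp3 (chr9:7445756-7445802, plus strand): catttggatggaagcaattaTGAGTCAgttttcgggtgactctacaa
Mmp1a (chr9:7464048-7464094, plus strand): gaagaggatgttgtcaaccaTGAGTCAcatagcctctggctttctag
Mmp10 (chr9:7502259-7502305, plus strand): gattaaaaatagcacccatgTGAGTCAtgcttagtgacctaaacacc
Mmp20 (chr9:7628116-7628162, plus strand): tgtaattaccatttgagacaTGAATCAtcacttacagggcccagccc
Mmp7 (chr9:7692007-7692053, plus strand): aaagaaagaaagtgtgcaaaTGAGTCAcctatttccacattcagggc
Mmp20 held TGAATCA, and the others held TGAGTCA or, in Mmp13, its reverse complement TGACTCA, which ended 28 bases before the start. The genes of the cluster are related copies, so that their promoters are not independent sequences. Mmp13 alone among these 8 genes reached a testable count, while the other 7 had between 0 and 44 reads in all P0 litters together. Mmp8, which was higher at P0, did not hold these letters in its window, nor did Mmp27. A RUNX motif, TGTGGT on either strand, was found in 6 of the 32 members (18.8%) and in 18.9% of all genes. By position it was in 4 of the 10 cluster genes and in 2 of the 22 others. RUNX proteins include Runx2, which is needed for bone formation. Mmp13 held 1 such motif, read here on the other strand as its reverse complement in capitals, which ended 112 bases before the start.
Mmp13 (chr9:7272376-7272421, plus strand): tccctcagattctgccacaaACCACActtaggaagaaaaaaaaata
A match describes letters only. Binding was not measured, and Runx2 itself was not called (log2 fold change -0.40, SE 0.36, adjusted p = 0.438).

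The gelatinases, which digest denatured collagen and basement membrane collagen, moved in opposite directions. Mmp2 (gelatinase A), a broadly made mesenchymal enzyme, was at 149, 132, 85.5 and 169 CPM at E12.5 and 23.0, 31.4, 19.7 and 29.7 CPM at P0. The lowest E12.5 litter was 2.72 times the highest P0 litter, and the log2 fold change was -2.37 (SE 0.28, adjusted p = 0.000317), or 5.15-fold lower. Mmp9 (gelatinase B), which is made by neutrophils, osteoclasts and other cells, was at 3.77, 2.34, 1.57 and 2.95 CPM at E12.5 and 111, 150, 1059 and 90.5 CPM at P0. All P0 litters were above all E12.5 litters, with NPD28 again highest by far. The log2 fold change of Mmp9 was 7.08 (SE 0.98, adjusted p = 0.000911), and without NPD28 it was 5.50 (adjusted p = 3.06e-05).

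Mmp8, Mmp9 and Mmp25 had their highest P0 level in the same litter as the sum of the neutrophil markers. Mmp25 (MT6-MMP, also called leukolysin), a membrane-anchored MMP of leukocytes, was at 0.944, 0.585, 1.69 and 1.72 CPM at E12.5 and 9.12, 17.2, 101 and 12.9 CPM at P0. Its log2 fold change was 4.78 (SE 0.88, adjusted p = 0.00347) and 3.37 without NPD28 (adjusted p = 0.00163). The 11 neutrophil markers, which include S100a8, S100a9, Ngp and Camp, summed to 5.66 to 19.7 CPM at E12.5 and to 869, 946, 8118 and 1108 CPM at P0, and the 10 that could be tested were all higher at P0. Of the 11 markers, 9 were highest in NPD28 among the P0 litters, while Mpo (22.8 against 42.1 to 76.9 CPM) and Elane (1.29 against 7.08 to 10.8 CPM), which mark early stages of the lineage, were lowest there. As a percentage of that sum, Mmp8 was 4.38, 5.45, 6.68 and 5.04 in the P0 litters. Mmp9 was 12.8%, 15.9%, 13.0% and 8.17% of it, and Mmp25 was 1.05%, 1.81%, 1.24% and 1.16%. The ratio of each of these 3 genes to the neutrophil sum stayed within 1.53-fold to 1.94-fold. Their own levels spanned 11.0-fold to 14.3-fold, a contrast set by NPD28 alone. In the other P0 litters Mmp8 was at 38.1 to 55.8 CPM (4.38% to 5.45% of the sum). Mmp9 was at 90.5 to 150 CPM there (8.17% to 15.9%), and Mmp25 at 9.12 to 17.2 CPM (1.05% to 1.81%). The part of neutrophil RNA in these 3 results was not tested. For Mmp9, the osteoclast markers were also higher at P0, at 397, 316, 157 and 125 CPM against 17.4 to 29.5 CPM at E12.5, and Mmp9 ranged from 28.1% to 673% of that sum. Of the osteoclast markers, Ctsk and Acp5 were both higher at P0, and the other 5 did not pass the filter. In NPD30 most of the sum was Ctsk, at 103 CPM, and the 5 untested markers were at 0 to 1.36 CPM. Acp5 was at 19.6 CPM in NPD30, below its 21.1 CPM in the E12.5 litter NPD9.2. In NPD30, where the macrophage markers were at the E12.5 level, Mmp9 was at 90.5 CPM. The parts of osteoclasts and macrophages in the Mmp9 result were not tested either.

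Mmp13 did not share that pattern. It was lowest, not highest, in NPD28, and it ranged from 1.26% to 20.8% of the neutrophil sum. The osteoblast markers Ibsp, Bglap, Sp7, Alpl, Phex, Dmp1 and Runx2 summed to 29.98 to 88.2 CPM at E12.5 and to 341, 547, 414 and 714 CPM at P0, with 5 of the 6 tested higher. Most of that sum was Runx2 at E12.5 (25.0 to 81.4 CPM) and Ibsp at P0 (245 to 526 CPM). Mmp13 was 42.3%, 36.0%, 24.7% and 21.1% of the sum in the P0 litters. That is a range of 2.01-fold, no narrower than the 1.92-fold range of Mmp13 itself. The 3 hypertrophic chondrocyte markers summed to 22.0 to 61.1 CPM at E12.5 and to 56.7 to 157 CPM at P0, with overlap between the stages. Most of that sum was Pth1r, which was not called (log2 fold change 0.95, SE 0.43, adjusted p = 0.126). Col10a1, 1 of the 2 tested, was higher at P0 without overlap (log2 fold change 3.20, SE 0.38, adjusted p = 0.000322). The third marker, Ihh, was at 0 to 2.46 CPM in all litters and was not tested. The part of bone or cartilage cells in the Mmp13 result was not tested.

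**Figure D3:**
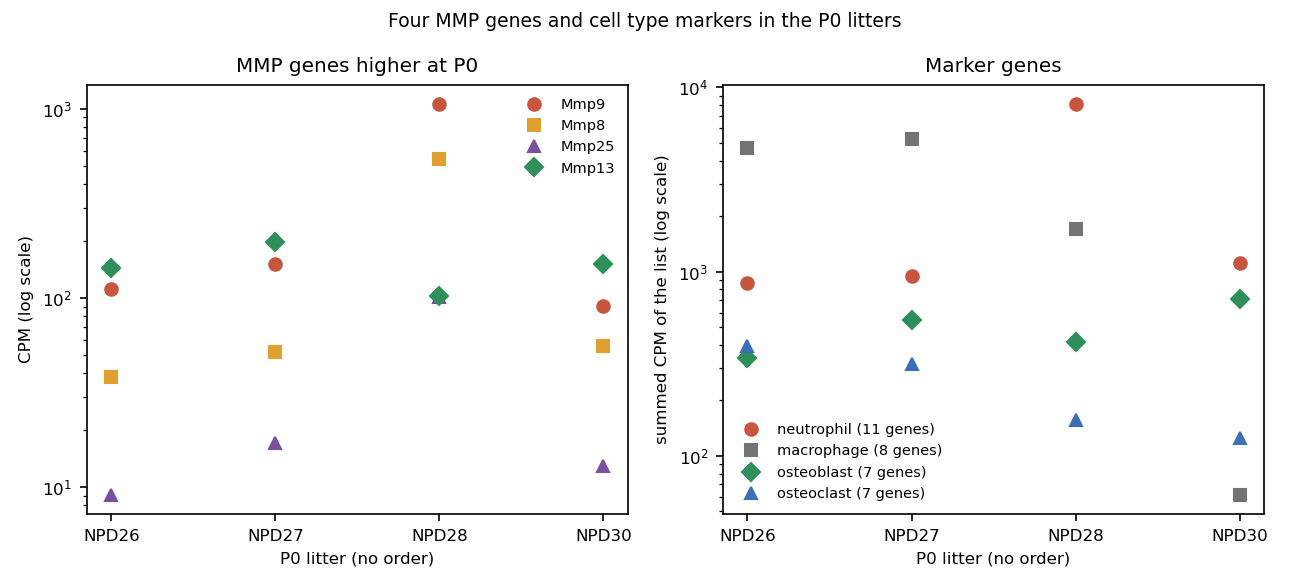
CPM of the 4 MMP genes higher at P0 (left) and summed CPM of 4 marker lists (right) in each P0 litter, both on a log scale, 1 point per litter. Mmp8, Mmp9, Mmp25 and the neutrophil list are highest in NPD28, where Mmp13 is lowest, and the macrophage list is lowest in NPD30 at 61.7 CPM.

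The membrane-type MMPs act at the cell surface. Of the 6, 4 were lower at P0 (66.7%, against 12.0% of all genes tested). Mmp25, given above, was the 1 that was higher (16.7%, against 16.0%). Mmp17 (MT4-MMP) was at 31.1, 24.4, 13.2 and 24.1 CPM at E12.5 and 2.99, 1.87, 1.88 and 2.27 CPM at P0. Its stages were far apart, with a log2 fold change of -3.35 (SE 0.37, adjusted p = 0.000219). Mmp15 (MT2-MMP) was at 119, 47.0, 88.5 and 132 CPM at E12.5 and 20.8, 13.8, 7.89 and 21.8 CPM at P0, a log2 fold change of -2.59 (SE 0.40, adjusted p = 0.00118). Mmp16 (MT3-MMP) was at 62.7, 69.5, 54.8 and 58.0 CPM at E12.5 and 11.8, 28.7, 21.0 and 31.5 CPM at P0, a log2 fold change of -1.40 (SE 0.30, adjusted p = 0.00561). Neither Mmp15 nor Mmp16 overlapped between the stages. Mmp14 (MT1-MMP), which activates the precursor of Mmp2 together with Timp2, was at 154, 154, 121 and 188 CPM at E12.5 and 88.4, 122, 69.0 and 77.2 CPM at P0. The NPD4 and NPD27 litters touched, at 121 and 122 CPM. The log2 fold change of Mmp14 was -0.79 (SE 0.25, adjusted p = 0.0337), and the call held in 2 of 8 refits with a litter removed, where the log2 fold change stayed between -0.97 and -0.68. The litters whose removal kept the call were NPD4 and NPD27. Of the 4 membrane-type MMPs lower at P0, Mmp14 had the smallest change.

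Mmp24 (MT5-MMP), which is known from neurons, was not called, and a single litter decided this. It was at 1.18, 0.585, 21.2 and 1.97 CPM at E12.5 and 12.6, 13.1, 14.4 and 13.2 CPM at P0, so that NPD4 alone lay above all P0 litters. With NPD4 the log2 fold change was 1.04 (SE 0.88, adjusted p = 0.422), and without it 3.42 (adjusted p = 0.000866). NPD4 also had the highest level of the neuronal genes Tubb3, at 576 CPM, and Elavl3, at 289 CPM, and the 6 neural tube markers summed to 894 CPM against 53.9 to 104 CPM in the other E12.5 litters and 115 to 288 CPM at P0. Not all of the list was high there, since Pax6 was lower in NPD4 (1.57 CPM) than in the other E12.5 litters (3.51 to 4.95 CPM), Nkx6-1 was at 0.242 CPM and Olig2 was near 0. The part of neural tissue in the NPD4 value was not tested. In addition, 13.6% of the exon bases of Mmp24 overlap a gene on the other strand.

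Of the remaining MMPs, Mmp11 and Mmp28 were lower at P0. Mmp11 (stromelysin 3), an enzyme of embryonic and wound stroma that furin activates inside the cell, was at 34.7, 29.3, 26.1 and 38.4 CPM at E12.5 and 9.44, 8.22, 6.59 and 8.19 CPM at P0. Its litters were tight within both stages and did not overlap (log2 fold change -1.98, SE 0.26, adjusted p = 0.000478). Mmp28 (epilysin) was at 9.67, 1.76, 3.99 and 9.34 CPM at E12.5 and 1.10, 0.433, 0.942 and 1.36 CPM at P0. The P0 litters of Mmp28 lay close to the detection limit (log2 fold change -2.66, SE 0.65, adjusted p = 0.0111). Mmp19 (between 0.585 and 5.66 CPM in all litters) and Mmp23 (between 2.04 and 15.5 CPM) were not called. Genes on the other strand overlap 28.3% of the exon bases of Mmp19 and 12.0% of those of Mmp28, and their reads could not be told apart.

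Among the proteoglycan-cleaving ADAMTS genes, the aggrecanases best known from cartilage and disc breakdown were not called. Adamts4 was at 4.29 to 9.34 CPM at E12.5 and at 1.97 to 14.997 CPM at P0 (log2 fold change -0.15, SE 0.62, adjusted p = 0.882). Adamts5 was at 24.8 to 51.6 CPM at E12.5 and at 20.3 to 56.5 CPM at P0 (log2 fold change 0.12, SE 0.35, adjusted p = 0.835). Adamts1 was not called either (log2 fold change -0.60, SE 0.38, adjusted p = 0.275). For all 3 the stages overlapped. By contrast, Adamts9, a versican-cleaving enzyme of the embryo, was at 90.8, 59.9, 40.6 and 106 CPM at E12.5 and 16.4, 24.9, 16.6 and 22.4 CPM at P0 (log2 fold change -1.88, SE 0.32, adjusted p = 0.0019), with 12.0% of its exon bases overlapped on the other strand. Adamts15, also a versicanase, was at 32.1, 27.3, 28.0 and 56.6 CPM at E12.5 and 3.77, 5.62, 4.12 and 7.43 CPM at P0 (log2 fold change -2.78, SE 0.35, adjusted p = 0.000444). Both were lower at P0 with no overlap.

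Adamts20 was the single ADAMTS gene that was higher at P0. It encodes the closest relative of Adamts9, and is known for its role in pigment cell migration and palate closure. It was at 8.73, 5.85, 4.84 and 7.87 CPM at E12.5 and at 47.0, 26.7, 70.2 and 110 CPM at P0. The lowest P0 litter was 3.06 times the highest E12.5 litter, and the log2 fold change was 3.23 (SE 0.43, adjusted p = 0.000587), or 9.36-fold higher. It was highest in NPD30. The order of the P0 litters by Adamts20 was shared by T, at 1007, 574, 1372 and 2323 CPM, by Acan, and by the sums of the tendon and annulus markers (477, 419, 1047 and 1455 CPM) and the hypertrophic chondrocyte markers, so that the order singled out no cell type, and Adamts20 was 1.35%, 1.27%, 1.73% and 1.47% of the summed notochord markers in the 4 P0 litters. Most of the tendon and annulus sum was Fmod, at 456, 403, 1029 and 1415 CPM. The part of any cell type in the Adamts20 result was not tested. T itself was not called between the stages (log2 fold change 1.18, SE 0.52, adjusted p = 0.117).

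The 3 procollagen N-proteinases trim collagens I, II and III before fibrils form, and none was called. The nearest was Adamts2, at 4.11 to 18.0 CPM at E12.5 and 9.12 to 28.8 CPM at P0 (log2 fold change 1.21, SE 0.50, adjusted p = 0.098), followed by Adamts3 (log2 fold change -0.13, SE 0.35, adjusted p = 0.823) and Adamts14 (log2 fold change 0.11, SE 0.50, adjusted p = 0.9). Without the E12.5 litter NPD9.2, Adamts2 was higher at P0 (log2 fold change 1.69, adjusted p = 0.0345). Of the collagen genes they act on, Col1a1 and Col1a2 were higher at P0 and Col3a1 was lower. Col2a1 was not called (log2 fold change -0.49, SE 0.56, adjusted p = 0.558).

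Of the 8 other ADAMTS genes tested, 6 were lower at P0 (75%, against 12.0% of all genes tested), and none was higher. Adamts6, whose product takes part in matrix assembly of the embryo, fell most of the 34 tested genes. It was at 27.8, 60.3, 45.1 and 22.1 CPM at E12.5 and 0.472, 5.05, 2.83 and 0.910 CPM at P0 (log2 fold change -4.05, SE 0.64, adjusted p = 0.00152). The lowest E12.5 litter was 4.38 times the highest P0 litter, and without NPD27 the log2 fold change was -4.71. Adamts10, the close relative of Adamts6 that acts on fibrillin microfibrils, was at 76.2, 64.0, 48.6 and 74.8 CPM at E12.5 and 8.49, 19.3, 27.0 and 29.0 CPM at P0 (log2 fold change -1.65, SE 0.35, adjusted p = 0.00571). Both genes of this pair were thus lower, Adamts6 by 16.5-fold and Adamts10 by 3.14-fold.

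Adamts7 and Adamts12 form another related pair, known for cleaving cartilage oligomeric matrix protein. Adamts7 was at 46.9, 26.3, 22.6 and 47.0 CPM at E12.5 and 3.15, 6.63, 6.12 and 7.58 CPM at P0 (log2 fold change -2.60, SE 0.37, adjusted p = 0.000769). Adamts12 was at 88.0, 87.0, 37.0 and 73.3 CPM at E12.5 and 5.03, 10.8, 18.4 and 20.5 CPM at P0 (log2 fold change -2.38, SE 0.44, adjusted p = 0.00297). Neither overlapped between the stages. Adamts17, linked to fibrillin matrix as Adamts10 is, was at 25.2, 25.2, 23.6 and 37.4 CPM at E12.5 and 5.35, 7.79, 5.06 and 11.1 CPM at P0 (log2 fold change -1.93, SE 0.33, adjusted p = 0.0019). Adamts18 was at 17.5, 14.0, 5.32 and 33.7 CPM at E12.5 and 3.62, 2.45, 0.942 and 1.97 CPM at P0 (log2 fold change -2.97, SE 0.59, adjusted p = 0.00408). Adamts17 and Adamts18 also did not overlap, although Adamts18 varied widely at E12.5. Adamts19, a close relative of Adamts17, was at 5.66, 11.1, 6.29 and 10.8 CPM at E12.5 and 5.03, 2.88, 0.353 and 0 CPM at P0. Its stages did not overlap, but edgeR did not call it (log2 fold change -2.04, SE 0.91, adjusted p = 0.122). Limma-voom did (-3.31, adjusted p = 0.0285), and without NPD26 the log2 fold change in edgeR was -2.95 (adjusted p = 0.0575). Adamts16 stayed between 1.21 and 5.03 CPM in all litters and was not called.

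Markers of some surrounding tissues summed higher at E12.5 and those of others at P0. The tendon and annulus markers summed to 73.1 to 270 CPM at E12.5 and 419 to 1455 CPM at P0. Most of that sum was Fmod (51.4 to 256 CPM at E12.5 and 403 to 1415 CPM at P0), which was higher at P0. Scx was lower without overlap (log2 fold change -1.31, SE 0.36, adjusted p = 0.0186), Mkx was not called and Tnmd was not tested. The neural tube and endothelial sums overlapped between the stages. The 6 sclerotome markers, among them Pax1, summed to 125 to 173 CPM at E12.5 and 6.00 to 18.7 CPM at P0, and all 6 were lower at P0. The skeletal muscle markers summed to 108 to 474 CPM at E12.5 and 2.71 to 17.2 CPM at P0, with 5 of the 5 tested lower. The 5 fetal liver markers, among them Afp and Alb, summed to 566, 42.5, 209 and 689 CPM at E12.5 and 58.3, 67.6, 20.5 and 4.55 CPM at P0. Their sum was thus highest in NDP10.2 and NPD9.2, and the stages overlapped. Of the 4 tested, 3 were lower at P0. Trf was not called, and it made up most of the sum at P0 (3.34 to 64.6 CPM). The part of sclerotome, muscle and fetal liver in the 15 decreases was not tested. With only 2 E12.5 litters left, after NDP10.2 and NPD9.2 were taken out, the calls as lower went from 1853 to 1088 over all genes and from 15 to 11 among the members. Mmp14 (log2 fold change -0.67, adjusted p = 0.163), Mmp28 (-1.61, adjusted p = 0.16), Adamts10 (-1.46, adjusted p = 0.0631) and Adamts18 (-2.14, adjusted p = 0.0548) lost the call in that fit and kept their direction.

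Of the TIMPs, Timp2 was higher at P0. It was at 199, 136, 99.1 and 194 CPM at E12.5 and 490, 539, 557 and 679 CPM at P0. The P0 litters were tight, within 1.38-fold of each other, and the lowest of them was 2.47 times the highest E12.5 litter. The log2 fold change was 1.85 (SE 0.28, adjusted p = 0.00111), or 3.61-fold. Timp1, an inducible inhibitor, was at 6.13, 10.5, 4.84 and 11.1 CPM at E12.5 and 10.7, 7.79, 8.95 and 10.006 CPM at P0. Its stages overlapped and it was not called (log2 fold change 0.21, SE 0.36, adjusted p = 0.712).

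Timp3, which binds to the matrix and also inhibits ADAMTS aggrecanases, was at 91.1, 88.8, 74.5 and 98.1 CPM at E12.5 and 81.8, 68.1, 111 and 243 CPM at P0. NPD30 was the one litter far above E12.5, and Timp3 was not called (log2 fold change 0.52, SE 0.37, adjusted p = 0.331). Without NPD30 and NPD9.2 its log2 fold change was -0.00233 (adjusted p = 0.997). Reads on Timp3 may include some of Syn3, which overlaps 21.3% of its exon bases on the other strand. Timp4, at 0.708, 1.37, 2.18 and 0.492 CPM at E12.5 and 0.315, 0.577, 0.235 and 0.303 CPM at P0, had 30 and 10 reads in all at the 2 stages and was not tested.

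The other genes that could not be tested held few reads. Adamts13, which cleaves von Willebrand factor in blood, had 0 reads at E12.5 and 22 at P0, of which 11 were in NPD26. Setting 3 reads for the whole E12.5 stage gave a ratio of 5.41. That ratio takes the P0 count as exact and leaves out the spread between litters, so it is not a lower limit. Without the filter Adamts13 passed the threshold (adjusted p = 0.0464). Mmp3 (stromelysin 1) had 0 and 16 reads, 9 of them in NPD26, a ratio of 3.94 on the same basis. It was not called without the filter (adjusted p = 0.0952). Mmp12 (macrophage elastase) had 5 and 44 reads, of which 31 were in NPD27. The macrophage markers summed to 5227 CPM in that litter and to 4712 CPM in NPD26, which had 6 Mmp12 reads, and the part of macrophages was not tested. Mmp21 had 3 and 19 reads, and Adamts8 had 27 and 15. Mmp27, Mmp10, Mmp20 and Mmp7 had at most 8 reads at either stage, so that Mmp7 and Mmp20, which are known from epithelium and tooth enamel, were not detectable at this depth at E12.5.

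To order the genes by level, CPM was divided by the exon length in kilobases. At E12.5 the highest members on this scale were Timp2 at 40.3 ± 12.3 and Mmp2 at 39.7 ± 10.5, which differed by less than their spread, followed by Mmp14 at 25.9 ± 4.55 CPM per kilobase. At P0 Timp2 stood at 145 ± 20.5, above Mmp13 at 55.6 ± 14.5, Timp3 at 15.5 ± 9.80 and Mmp14 at 14.95 ± 3.91 CPM per kilobase, and Mmp2 had gone down to 7.70 ± 1.65. Mmp9 at 99.7 ± 133 and Mmp8 at 70.9 ± 102 CPM per kilobase could not be placed in that order, since NPD28 set most of their mean. The order depended on the length used. Per kilobase of the longest transcript, Mmp14 was highest at E12.5 at 47.6, before Mmp2 at 43.5 and Timp2 at 42.4, and at P0 it stood at 27.5, beside Timp3 at 26.7. The makeup of the MMP RNA changed with the stage. Mmp2 was 28.7% to 39.2% of the summed MMP level per kilobase at E12.5 and 0.955% to 6.00% at P0. Mmp13 was at most 0.0728% of it at E12.5 and 38.4%, 38.9%, 6.27% and 38.3% in the P0 litters. Among the TIMPs, Timp2 was 60.4% to 73.7% of the summed level at E12.5 and 80.9% to 88.9% at P0.

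**Figure D4:**
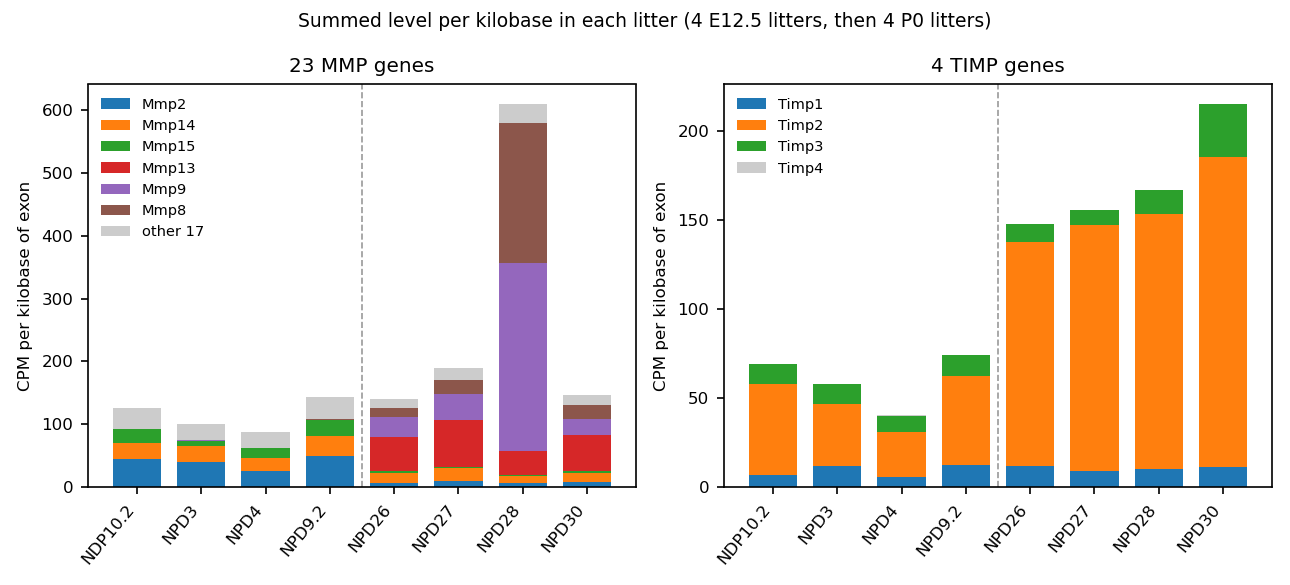
Summed level per kilobase of exon (CPM per kilobase) of the 23 MMP genes (left) and the 4 TIMP genes (right) in each litter, stacked by gene, with the 4 E12.5 litters before the dashed line. Mmp2, Mmp14 and Mmp15 make up most of the MMP bar at E12.5 and Mmp13, Mmp9 and Mmp8 at P0, with the bar of NPD28 reaching 611; Timp2 makes up most of every TIMP bar.

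The summed level of all 19 ADAMTS genes was 42.2 to 72.0 CPM per kilobase at E12.5 and 20.7 to 45.0 at P0, and the stages overlapped by the litters NPD4 and NPD30. The summed level of the 4 TIMP genes was 40.4 to 74.4 CPM per kilobase at E12.5 and 148 to 215 at P0, without overlap. Set against the MMP genes, the TIMP sum was 0.458 to 0.579 of the MMP sum at E12.5, a narrow range. At P0 it was 1.05, 0.822, 0.273 and 1.47, so that 3 P0 litters lay above every E12.5 litter and NPD28 lay below all of them. These are ratios of RNA and say nothing of active enzyme.

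The other genes of the pathway are given by group, beside shares of 16.0% higher and 12.0% lower over all genes tested. Of the 7 ADAMTS-like genes, which resemble ADAMTS proteins but lack the protease domain, 3 were lower at P0 and 0 higher, led by Adamtsl1 (log2 fold change -2.14, SE 0.36, adjusted p = 0.00189) and Adamtsl2 (log2 fold change -1.95, SE 0.43, adjusted p = 0.0063). Of the 6 tested genes of zymogen activation, Plaur, the urokinase receptor, was higher (log2 fold change 2.82, SE 0.58, adjusted p = 0.00487), and Plat, the tissue plasminogen activator, was lower (log2 fold change -1.43, SE 0.38, adjusted p = 0.0159). Plaur was highest in NPD28, at 57.7 CPM against 9.55 to 16.0 CPM in the other P0 litters. Furin and 3 related convertases were not called. Of the 7 tested inhibitors other than TIMPs, 1 was lower and 0 were higher. This was Reck, a membrane-anchored inhibitor of MMPs, at 103, 119, 61.5 and 78.7 CPM at E12.5 and 6.92, 13.4, 25.9 and 17.3 CPM at P0 (log2 fold change -2.51, SE 0.39, adjusted p = 0.00113). Reck thus fell where Timp2 rose. None of the 3 clearance receptors was called. The shares called among the activators (16.7% each way) and these inhibitors (14.3% lower) were thus near those of all genes.

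Among the 9 tested substrates, 3 were higher and 3 lower at P0. Col1a1 was higher with a log2 fold change of 3.21 (SE 0.64, adjusted p = 0.00402), and Col1a2 with one of 2.51 (SE 0.43, adjusted p = 0.00188). Vcan (versican), the embryonic proteoglycan that Adamts9, Adamts15 and Adamts20 can cleave, was at 440, 949, 599 and 668 CPM at E12.5 and 14.3, 35.0, 31.5 and 45.3 CPM at P0 (log2 fold change -4.39, SE 0.41, adjusted p = 0.000112). Col3a1 was also lower (log2 fold change -1.99, SE 0.42, adjusted p = 0.00514). Acan (aggrecan) was at 892, 537, 164 and 328 CPM at E12.5 and 895, 646, 2482 and 3603 CPM at P0, with overlap between the stages and a log2 fold change of 1.99 (SE 0.65, adjusted p = 0.0422). Vcan therefore fell together with Adamts9 and Adamts15, while Adamts20 rose.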

How the data were processed

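RNA-seq counts of 4 E12.5 and 4 P0 litters were used. According to the paper's methods and the submitters' processing notes, the authors aligned single-end reads to GRCm38 with STAR 2.4.0j and assigned them to genes of Gencode M4 by htseq-count; the strand setting is not given in the sources used here. The deposited values are raw read counts per gene, without normalization. Rows that name no gene held 65.2% to 77.4% of all reads and were left out. Symbols, positions and exon lengths were those of Gencode M21, also on GRCm38 but newer than M4.

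Genes were filtered with filterByExpr (minimum count 10, minimum total 15) and tested in R 4.3.3 with edgeR 4.0.16 (TMM, robust quasi-likelihood F-test, stage as the only term), with Benjamini-Hochberg adjustment over 15467 genes. The SE is the size of the log2 fold change over the square root of F. Log2 CPM was computed with a prior count of 2. The test was tried on simulated data. Alternatives used DESeq2 1.42.0, limma 3.58.1 (voom), other scalings, filters and thresholds, downsampling, and litters left out. Leaving out NPD30 with NPD9.2, and NPD30 alone against E12.5, were added after seeing the data. Motifs were counted in RefSeq promoters.

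The members and gene lists were chosen with earlier results of these data known. Every member is named; values per litter are given for each called member and each TIMP, and of each pathway list the called genes with the largest change in each direction, up to 2 each way. Acan, Runx2, T and marker genes were named after their values were seen.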

Additional observations from a re-analysis of the deposited data

Results flagged for a closer look

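Litters that stood far from the other 3 of their stage were sought in 69 sets of 4 litters, by Dixon's test on the gap to the nearest litter as a share of the whole range. Chance alone marks about 1 in 20 such sets, and the 3 found are about as many as that gives. Mmp8 in the P0 litter NPD28 was at a log2 CPM of 9.08, against 5.26 to 5.81 in the other P0 litters. Adamts17 in the E12.5 litter NPD9.2 was at 5.24, against 4.58 to 4.68. Adamts2 in the P0 litter NPD26 was at 3.24, against 4.61 to 4.86. The neutrophil markers summed to 8118 CPM in NPD28, and the part of neutrophil RNA was not tested. The Mmp8 and Adamts17 calls held without these litters.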

How the results depend on the processing

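The count of members higher at P0 was 3 in place of 6 when at least 10 reads were required in every sample, a filter that left 25 members to test and removed genes near 0 at E12.5. The count lower at P0 was 6 in place of 15 with NPD30 alone against E12.5, a fit with 1 sample in an arm, whose spread was assumed to be that of the E12.5 litters. In the other alternatives the counts were 4 to 8 higher and 11 to 16 lower, and leaving out 1 litter gave 6 to 7 higher and 14 to 15 lower. No fold change of a called member changed direction. Of the called members, Mmp14 alone lost its call when 1 litter was left out. With limma-voom, Mmp8 (adjusted p = 0.05001) and Mmp25 (adjusted p = 0.0730) were not called, and DESeq2 gave no adjusted p for Mmp8 and Mmp9. Upper quartile scaling moved the median of all genes from 0.036 to -0.11, and turned the split of all calls from 2468 higher and 1853 lower to 2105 higher and 2322 lower, but left the members at 6 and 15. No paired analysis was possible because the litters of the 2 stages share no number in the labels. The 12 members that could not be tested had too few reads to pass the filter.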
